A study of Mus musculus with 3 samples.

Results

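Slow-cycling Sox9-positive tip cells are the epithelial cells of the distal branch tips of the E14.5 mouse lung whose transcripts for mitosis and for S phase were low within their library. 720 such cells were found among 12967 deposited barcodes, 201 and 192 after the Epcam+ Icam+ sort (replicate 1 and replicate 2) and 327 after the Epcam+ sort. Both kinds of library came from C57/B6 embryos at E14.5. Per the labels, embryos of 2 females were used and their lungs were pooled and dissociated, red cells were lysed, and cells were stained for Epcam, an epithelial surface protein, and Icam1, an adhesion molecule. No mutation or treatment is labelled in any library, and all were made with the 10x Genomics 3' v3 chemistry, which counts molecules by unique identifiers (UMIs). Whether the libraries came from separate pools of lungs is not labelled, so p-values measure the spread among the 3 libraries and nothing wider, and that spread may be technical.

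The members were chosen by measured values. A barcode had to hold at least 5000 UMIs, at most 10% mitochondrial UMIs, at least 3 Epcam UMIs, fewer than 10 UMIs of the macrophage genes C1qa, C1qb and C1qc together, and no UMI of the airway factor Sox2. Cells above the library's 75th percentile in the share of 4 alveolar type 1 genes (Hopx, Clic5, Ager, Akap5) or of 3 alveolar type 2 genes (Sftpa1, Sftpb, Cxcl15) were dropped. Of the 3165 cells left, 1657 had at least 1 Sox9 UMI and are called tip cells. A tip cell was a member if it was not above the library's 75th percentile in the share of Ccnb1, Cdc20, Ube2c and Plk1 (mitotic share) and not above its 67th percentile in the share of Mcm5, Mcm6, Pcna, Cdc6 and Ccne2 (S phase share), both taken over the tip cells. The tip cells above the mitotic limit (414 mitotic tip cells) and those above the S phase limit alone (523 S phase tip cells) served for comparison, as did 241 slow-cycling airway cells, which had at least 1 Sox2 UMI, no Sox9 UMI and values below the same limits.

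The lung epithelium grows at its distal tips, where progenitors marked by Sox9 and Id2 divide and leave descendants behind that form airways and, later, alveoli. Fgf10 from the surrounding mesenchyme acts on Fgfr2 of the tip cells and raises the ETS factors Etv4 and Etv5. The airways behind the tips are marked by Sox2. A cell leaves the division cycle mainly in G1, where D-type cyclins with Cdk4 and Cdk6 act against inhibitors such as p57, the product of the imprinted gene Cdkn1c.

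The mitotic genes that define the cycling side of this split are known targets of a repressor complex that holds them down outside G2 and M and binds the cell cycle homology region (CHR) motif TTTGAA. The upstream sequences of 3 genes of the G2/M list are shown because this programme set the cycling side apart: Cdk1, the kinase that drives entry into mitosis, Ccnb2, a cyclin partner of it, and Top2a, the topoisomerase that untangles chromosomes. They are the 250 bases before the RefSeq start site on GRCm38.p6, all on the minus strand, at chr10:69352913-69353162 (Cdk1), chr9:70421555-70421804 (Ccnb2) and chr11:99024190-99024439 (Top2a), with TTTGAA or its reverse complement in capitals.
Cdk1: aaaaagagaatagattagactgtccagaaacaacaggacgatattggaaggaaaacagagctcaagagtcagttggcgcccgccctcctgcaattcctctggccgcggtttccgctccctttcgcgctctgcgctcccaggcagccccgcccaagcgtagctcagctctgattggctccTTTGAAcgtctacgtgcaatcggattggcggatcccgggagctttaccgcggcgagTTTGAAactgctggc
Ccnb2: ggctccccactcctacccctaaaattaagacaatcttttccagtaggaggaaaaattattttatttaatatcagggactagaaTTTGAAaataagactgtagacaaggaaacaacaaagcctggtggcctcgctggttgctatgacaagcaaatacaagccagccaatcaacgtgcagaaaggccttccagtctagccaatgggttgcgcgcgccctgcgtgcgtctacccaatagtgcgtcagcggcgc
Top2a: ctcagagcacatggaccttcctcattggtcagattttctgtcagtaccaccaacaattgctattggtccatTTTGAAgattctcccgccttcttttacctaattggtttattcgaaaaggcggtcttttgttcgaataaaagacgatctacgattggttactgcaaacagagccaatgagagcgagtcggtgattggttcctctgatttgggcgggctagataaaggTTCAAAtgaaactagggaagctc
The matches begin 71 and 15 bases before the start site in Cdk1, 167 bases before it in Ccnb2 and 179 and 23 bases before it in Top2a. In windows of 300 bases, from 250 before to 50 after the start site, TTTGAA stood on either strand in 18 of the 25 genes of the G2/M list with a RefSeq promoter (72%), in 2 of 18 genes of the S phase list (11.1%) and in 20.2% of all 27025 genes with a promoter. Among the other lists with at least 10 such genes the share ran from 0% (FGF and Wnt) to 41.7% (alveolar type 1). A match is a description of the letters and not a binding site.

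The 3 libraries held 4739, 4531 and 3697 barcodes with 74170599, 67843828 and 84460347 UMIs, and no member barcode was shared between libraries. The members had a median of 19117 and 19691.5 UMIs after the Epcam+ Icam+ sort and 29302 UMIs after the Epcam+ sort. File headers name software version 5.0.1 for the Epcam+ Icam+ sort and 3.0.2 for the Epcam+ sort, with gene tables of 32285 and 31053 genes, and these differences cannot be told apart from the Icam1 gate. Shares of cells with a UMI are given with depth, and thinned shares use 5000 UMIs drawn from each cell, and every member was deep enough for it.

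The markers of the distal tip were thinly counted. Sox9, which chose the cells, was carried by 1 UMI alone in 59.2% and 47.4% of Epcam+ Icam+ members and 34.9% of Epcam+ members. Of the cells left after the alveolar limits 42.4%, 45.9% and 67.05% held a Sox9 UMI (thinned, 15.6%, 17.2% and 25.8%), against 5.51%, 6.81% and 8.33% of the barcodes of macrophages, which should lack Sox9 (thinned, 2.26%, 2.09% and 0% of 399, 382 and 36 barcodes). The median depths were 19607, 20019 and 27775 UMIs in the cells left and 22308, 23488 and 24403 UMIs in the macrophage barcodes. The Sox9 share was thus above the background in each library, while a single UMI can also come from free RNA.

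Etv5, the FGF-induced ETS factor, was detected in 55.2% and 51.0% of Epcam+ Icam+ members and in 90.2% of Epcam+ members (thinned, 21.4%, 22.4% and 53.5%). Id2, an inhibitor of bHLH factors that marks tip progenitors, was detected in 78.6%, 82.3% and 98.5% (thinned, 44.3%, 44.3% and 80.4%), and Sftpc, the surfactant protein C gene that tip cells already transcribe, in 86.6%, 84.9% and 100% (thinned, 75.6%, 74.5% and 93.0%). All of Etv5, Id2 and Sftpc were detected in 46.8%, 44.3% and 89.0% of members, and none of them in 6, 7 and 0 cells. Members were also grouped by their Sox9 UMIs at full depth, with Etv5 thinned. Cells with 3 or more Sox9 UMIs had an Etv5 UMI in 32.3%, 30.2% and 53.1% of cases. The shares were 19.6%, 20.8% and 70% in cells with 2 and 19.3%, 18.7% and 43.9% in cells with 1. The share thus did not rise step by step in the Epcam+ library. The groups there also differed in depth, with medians of 23541.5 (1 Sox9 UMI), 29619.5 (2) and 37540 UMIs (3 or more). Sftpc varied widely between members of one library, with a median of 1106, 1206 and 1529 CPM (UMIs of a gene scaled to a common total per cell or class), a highest value of 32727, 28028 and 18597, and a lowest value of 0, 0 and 26.8. In the macrophage barcodes, thinned alike, Etv5 was detected in 10.8%, 10.7% and 13.9%, Sftpc in 26.6%, 20.2% and 41.7% and Id2 in 64.7%, 64.4% and 52.8%. The members' thinned shares of Etv5 and Sftpc were above these in each library, whereas that of Id2 was above in the Epcam+ library alone and below in both Epcam+ Icam+ libraries. Detection of Id2 therefore did not set the members apart from the macrophage barcodes after the Epcam+ Icam+ sort. Whether the Id2 UMIs of those barcodes are free RNA or their own transcripts was not tested. The comparison thus cannot show whether Id2 marks the members.

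Transcripts of other cell types were found in the members, at levels that differed between lists and libraries. Of the C1q genes, 16 and 18 Epcam+ Icam+ members and 90 Epcam+ members held 1 to 9 UMIs, which the rule allowed. The 7 endothelial genes summed to 2.98 and 4.27 CPM in Epcam+ Icam+ members, with 5 and 3 of them at 0, and to 55.8 in Epcam+ members, with none at 0 and 1 cell at 4683. The 10 macrophage and mast cell genes summed to 78.8 and 11.8 CPM, with 1 and 4 at 0, and to 147 in the Epcam+ library, with none at 0. The 7 erythroid genes summed to 4.97 and 856 CPM in the Epcam+ Icam+ libraries, the second value with 1 cell at 86768, and to 50.8 in the Epcam+ library. The 10 mesenchymal genes summed to 219 and 148 CPM in Epcam+ Icam+ members and 89.1 in Epcam+ members, and the 13 airway markers to 269, 256 and 167. Neuroendocrine genes summed to 0.745, 0.503 and 2.86 CPM and mesothelial genes to 2.48, 1.26 and 0.893. Cells with at least 10 UMIs of the macrophage, erythroid, endothelial or mesenchymal lists (without Acta2 and Tagln), or of Scgb3a2, numbered 7, 3 and 14 among the members, and each comparison was also fitted without them. The comparison classes were filtered alike, except that the Scgb3a2 limit was not applied to the airway cells.

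The name slow-cycling describes a rank within a library and not an absence of cycling. The mitotic limits were 642, 729 and 950 CPM and the S phase limits 385, 320 and 638, so both limits were highest in the Epcam+ library. Just inside and just outside, the mitotic share was 642 and 642 CPM in replicate 1 and 729 and 751 in replicate 2 of the Epcam+ Icam+ sort, and 949 and 952 in the Epcam+ library. The S phase share just inside and outside was 385 and 387, 316 and 321, and 638 and 638. Summed over all members the mitotic share was 156, 208 and 432 CPM, beside 1717, 1592 and 1805 in the mitotic tip cells. The members of the Epcam+ library thus held a larger mitotic share than its S phase tip cells (219 CPM), and a larger S phase share (402) than its mitotic tip cells (286). In the Epcam+ Icam+ libraries the members' S phase share was 157 and 142 CPM, and 76 and 59 members had no UMI of the 4 mitotic genes, against 27 in the Epcam+ library. Mki67, which marks cells in cycle and was not in the rule, was detected in 46.8%, 54.7% and 64.2% of members and in 97.4%, 97.2% and 85.9% of mitotic tip cells. Thinned, these shares were 23.4%, 28.1% and 21.4% in members and 75.7%, 74.8% and 30.2% in mitotic tip cells.

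**Figure D1:**
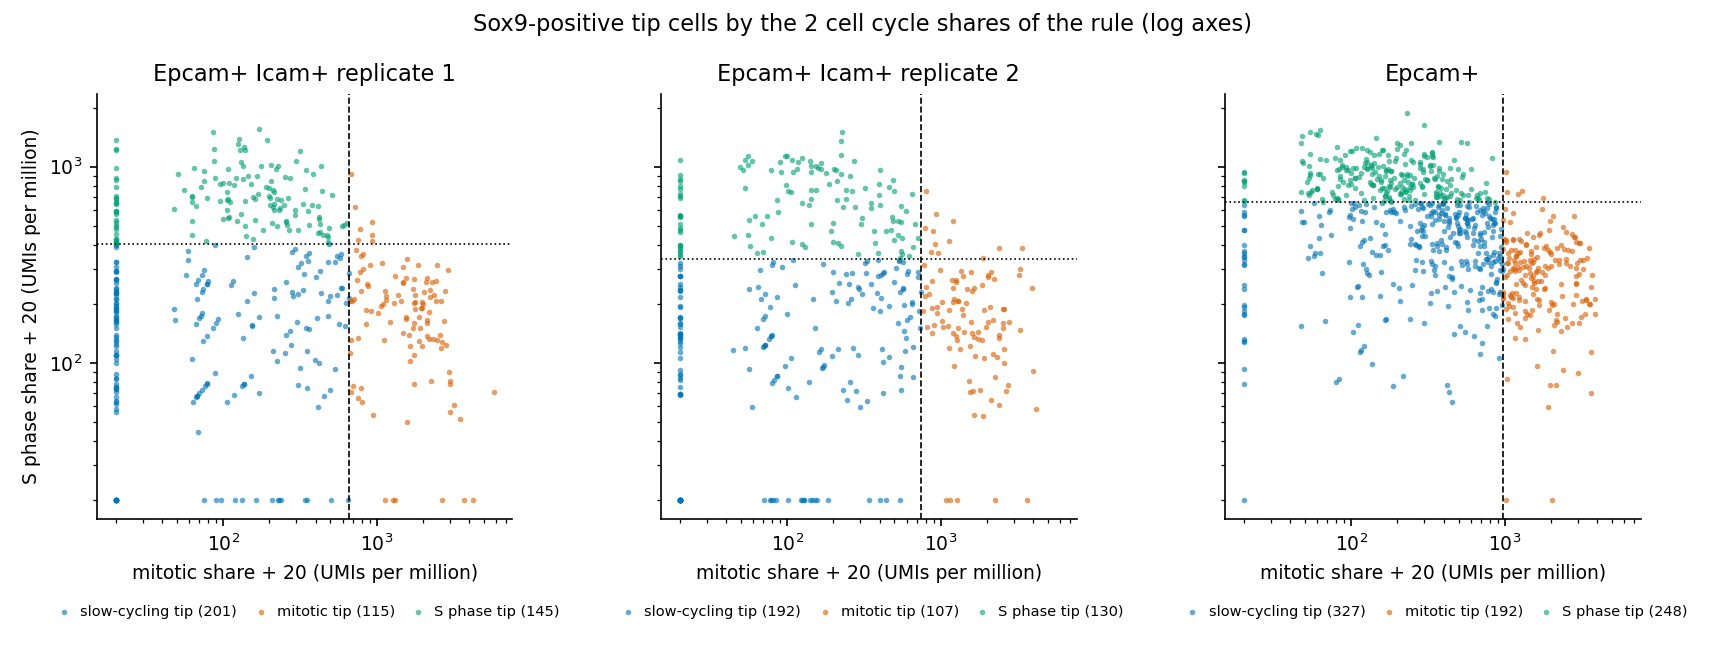
Each point is a Sox9-positive tip cell of the library named above the panel, with the summed share of 4 mitotic genes on the x axis and of 5 S phase genes on the y axis, both in CPM with 20 added, on log axes. The dashed and dotted lines are the library's mitotic and S phase limits, and the members (blue) lie at or below both; 76 and 59 members after the Epcam+ Icam+ sort and 27 after the Epcam+ sort had no UMI of the mitotic genes.

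The first comparison asks how the members differ from tip cells in mitosis, with UMIs summed over the cells of each class and library and the library as a block. By edgeR's quasi-likelihood test, with Benjamini-Hochberg adjusted p-values, 109 of 10977 genes rose (0.993%) and 285 fell (2.6%) in slow-cycling tip cells, or 3.59% of the genes tested. The rule made this split, so all 30 genes of the G2/M list fell by construction (median log2 fold change -1.55, against 0.0036 over all genes tested), and nothing is read from this. Among the largest falls outside the lists were likewise genes known from mitosis and microtubules: the importin Kpna2 (-2.37, SE 0.216), the midzone protein Prc1 (-2.26), the spindle pole protein Aspm (-1.99), the tubulins Tubb4b (-1.95) and Tuba1c (-1.82), Sapcd2 (-1.94), Kif22 (-1.88), Iqgap3 (-1.87) and the centromeric cohesin protector Sgo2a (-1.82). The members had fewer UMIs per cell than the mitotic tip cells, whose medians were 27417, 30362 and 34161.5.

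Cdkn1c stood at 1604 and 1704 CPM in slow-cycling tip cells of the Epcam+ Icam+ libraries and 636 in those of the Epcam+ library, against 1141, 1243 and 405 CPM in mitotic tip cells. It was higher in the members in each library (log2 0.56, SE 0.0548, edgeR adjusted p = 0.000357, n = 3 libraries). Ccnd2, the D-type cyclin D2, had 427, 345 and 309 CPM in slow-cycling tip cells and 222, 220 and 151 CPM in mitotic tip cells. The 2 sets of values did not overlap, and the log2 fold change was 0.90 (SE 0.0779, edgeR adjusted p = 0.000208). Mxd4, a partner of Max that acts against Myc, had 116, 106 and 35.7 CPM in slow-cycling tip cells against 73.4, 66.8 and 17.4 CPM in mitotic tip cells (log2 0.80, SE 0.0989, edgeR adjusted p = 0.00134). Of the 21 genes tested of the list of G1 regulators and cycle exit, 2 rose (Cdkn1c and Ccnd2), 1 fell (Rbl1, the pocket protein p107, log2 -0.78) and 18 did not pass. Among those 18 were Cdkn1a (log2 -0.10, SE 0.168), Cdkn1b (-0.24, SE 0.0960), the inhibitor p27 gene, and Ccnd1 (0.10, SE 0.0782).

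Of 12 imprinted growth genes, 3 rose and 2 fell, with a median of 0.23. Igf2, the fetal growth factor, had 344, 291 and 11.53 CPM in slow-cycling tip cells and 232, 224 and 6.90 CPM in mitotic tip cells (log2 0.54, SE 0.0799, edgeR adjusted p = 0.00393). H19, its neighbouring noncoding RNA, had 1008, 838 and 566 CPM in slow-cycling tip cells and 700, 791 and 410 CPM in mitotic tip cells (log2 0.39, SE 0.0815, edgeR adjusted p = 0.0292). The genes of the imprinted Dlk1 locus moved the other way. Dlk1, a Notch ligand-like membrane protein, had 89.9, 112 and 597 CPM in slow-cycling tip cells and 161, 161 and 794 CPM in mitotic tip cells (log2 -0.54, SE 0.0791, edgeR adjusted p = 0.00351), and Meg3 differed by -0.29 (SE 0.0546).

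The tip programme was lower in the members in 2 genes. Of 19 genes tested of the distal tip list, none rose, Etv5 and Foxp2 fell, and the median was -0.14. Etv5 had 63.2, 70.3 and 166 CPM in slow-cycling tip cells and 90.9, 93.0 and 229 CPM in mitotic tip cells, lower in each library (log2 -0.44, SE 0.0689, edgeR adjusted p = 0.00561). Foxp2, a forkhead factor of the distal lung epithelium, had 250, 238 and 165 CPM in slow-cycling tip cells and 497, 465 and 269 CPM in mitotic tip cells. These values did not overlap (log2 -0.86, SE 0.0689, edgeR adjusted p = 0.000138). Id2 differed by -0.14 (SE 0.0596, edgeR adjusted p = 0.244), Bmp4 by -0.35 (SE 0.1249) and Nkx2-1, the lung lineage factor, by -0.22 (SE 0.0588), and these did not pass. Sftpc had 3444, 3821 and 2485 CPM in slow-cycling tip cells and 5647, 5826 and 2239 CPM in mitotic tip cells, lower in both Epcam+ Icam+ libraries and not in the Epcam+ library (log2 -0.37, SE 0.128, edgeR adjusted p = 0.158).

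The other genes with the largest rises were Rab26os (log2 1.11), Snhg20, a host of small nucleolar RNA (0.87), Rem2, a small GTPase (0.83), Hspb1, a small heat shock protein (0.77), Kcnk2, a potassium channel (0.74), Ces1d, a carboxylesterase (0.71), Mthfd2l, a mitochondrial folate enzyme (0.70), and Cldn10, a tight junction claudin of the airway list (0.70). Rab26os lies antisense to Rab26, and since the use of strand in the counting is not given in the sources used here, the reads of the pair cannot be told apart. All 3 genes tested of the airway marker list rose. Krt15 had 18.5, 17.4 and 12.8 CPM in slow-cycling tip cells and 13.8, 7.04 and 6.04 CPM in mitotic tip cells (log2 0.94, SE 0.193). Scgb3a2, a secretory gene, rose by 3.55, but 1 cell gave 54% of its UMIs in the members of replicate 1 of the Epcam+ Icam+ sort. Without cells that carry RNA of another type Scgb3a2 differed by 0.57 and did not pass. That filter itself drops tip cells with at least 10 Scgb3a2 UMIs, so the smaller value follows in part from it and is no separate check. S100a6 (0.49), Krt18 (0.25), Anxa1 (0.47), Egr1 (0.68) and Myc (0.61) rose, and Rtkn2 (-1.34) fell. No gene of the FGF, Wnt, BMP and Id, Hedgehog or p53 lists passed, with medians from -0.18 to 0.08.

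These calls leaned on the replication within the Epcam+ Icam+ sort. All 37 named genes that passed also passed without the Epcam+ library, in which 647 genes rose and 941 fell, but 23 genes in all passed without replicate 2 of the Epcam+ Icam+ sort and 172 without replicate 1. Foxp2, Ccnd2, Kpna2, Tuba1c and Scgb3a2 still passed without replicate 2. Etv5 did not pass without replicate 1 or replicate 2 (log2 -0.42 and -0.46).

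**Figure D2:**
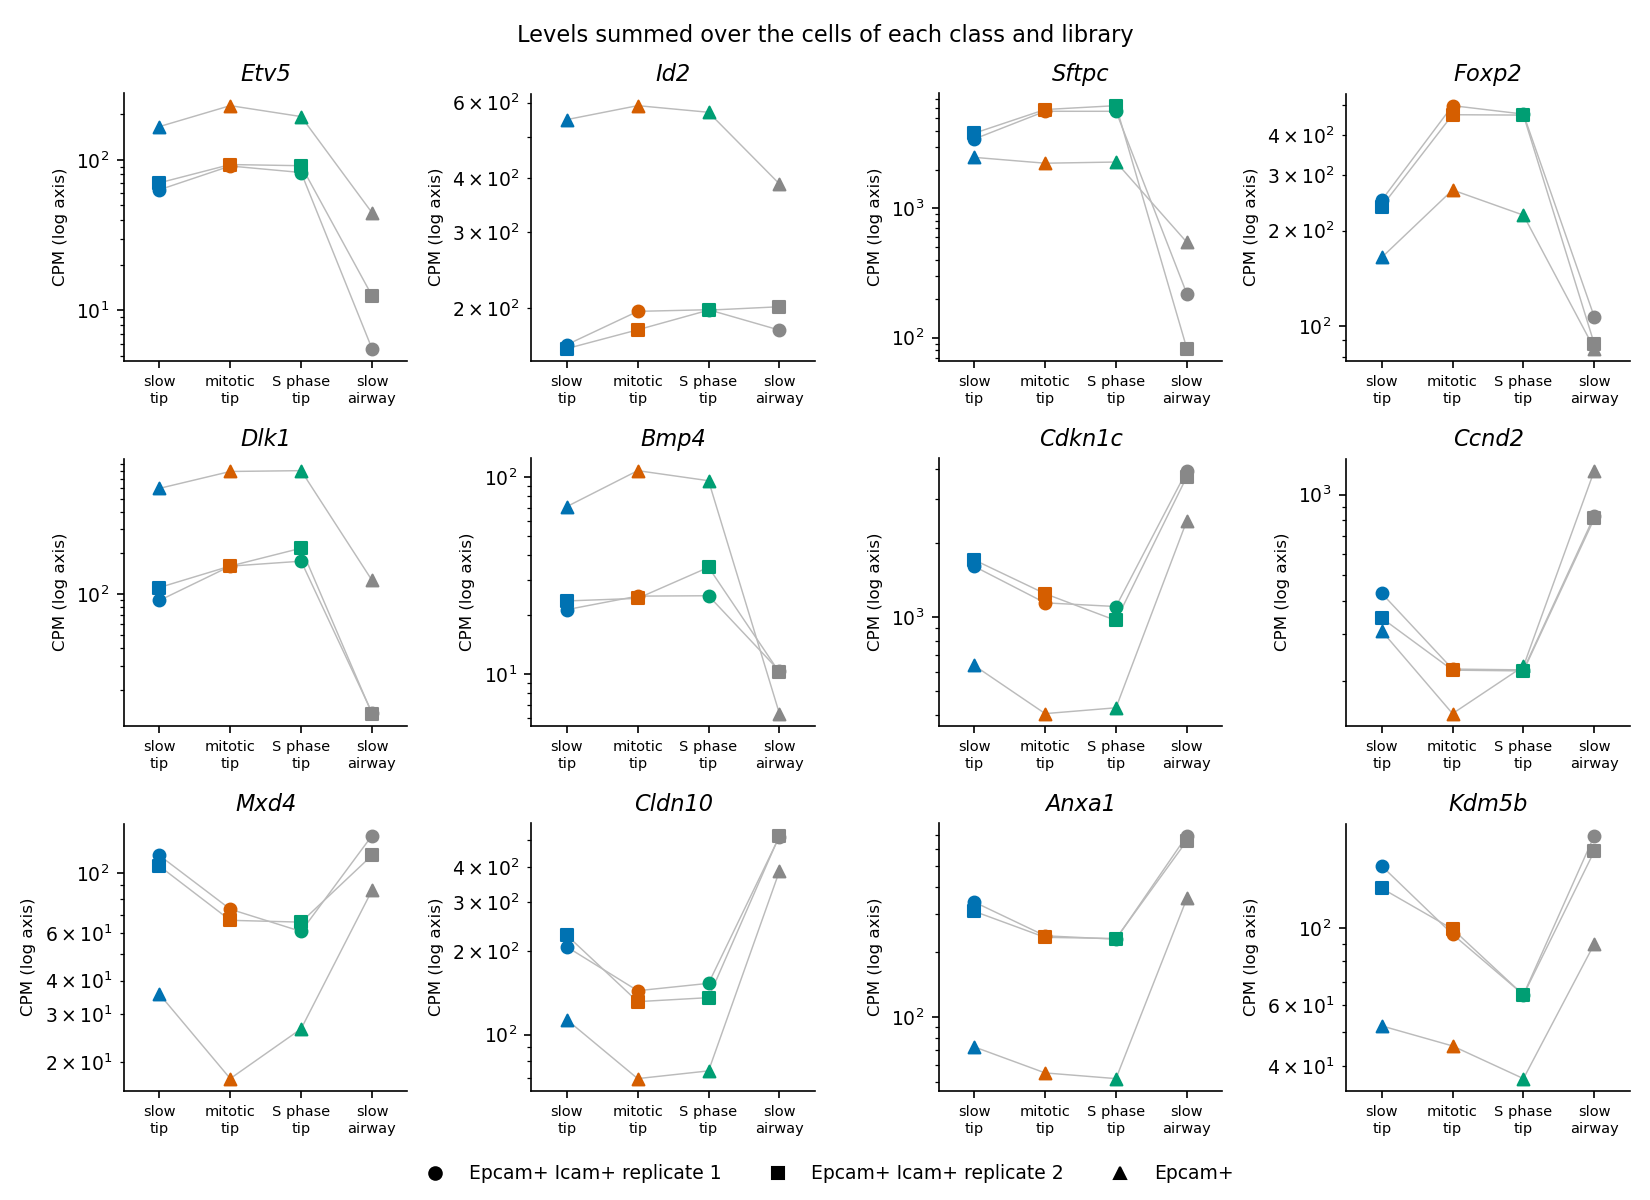
Levels of 12 genes in CPM (log axis, not starting at 0) summed over the cells of each class, with 1 symbol for each library and a line joining the classes of a library. Cdkn1c, Ccnd2, Cldn10 and Anxa1 are higher in slow-cycling tip cells than in mitotic tip cells of the same library and highest in slow-cycling airway cells, while Etv5, Foxp2 and Dlk1 run the other way. The genes drawn were picked from the comparisons in the text, so these orders follow in part from the choice.

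The second comparison sets the members against tip cells in S phase. In the edgeR quasi-likelihood fit, 45 of 11056 genes rose (0.407%) and 138 fell (1.25%), or 1.66% of those tested. The rule cut on the S phase programme, so the falls in 19 of 22 genes of the S phase list (median -1.41, against 0.01 over all genes tested) are a description only, as are the rises of 3 of 30 G2/M genes, Cenpa (1.49), Ccnb2 (1.19) and Knstrn (0.89), with Cenpa at 123, 158 and 167 CPM in slow-cycling tip cells and 33.9, 53.9 and 77.2 CPM in S phase tip cells. Among the largest falls outside the lists were Slfn9 (-2.29), the repair gene Brca1 (-2.12), the replication genes Fam111a (-2.01), Dscc1 (-2.005), Lig1 (-1.73) and Pclaf (-1.70), the factor E2f8 (-1.92) and Fbxo5, an inhibitor of the anaphase-promoting complex (-1.67). The S phase tip cells were also deeper in the Epcam+ Icam+ libraries, with medians of 26038, 26524.5 and 29482 UMIs.

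Cdkn1c was higher in the members here too, at 1604, 1704 and 636 CPM in slow-cycling tip cells and 1102, 968 and 428 CPM in S phase tip cells (log2 0.65, SE 0.0544, edgeR adjusted p = 0.0124). Ccnd2 had 221, 219 and 228 CPM in S phase tip cells, below each value in slow-cycling tip cells given above (log2 0.69, SE 0.0892, edgeR adjusted p = 0.0254). Kdm5b, a demethylase of histone H3 lysine, had 151, 130 and 52.2 CPM in slow-cycling tip cells and 64.2, 64.1 and 36.8 CPM in S phase tip cells, higher in the members in each library (log2 0.93, SE 0.133, edgeR adjusted p = 0.0265). Pdcd4, an inhibitor of translation, had 157, 162 and 81.2 CPM in slow-cycling tip cells and 97.5, 91.0 and 63.5 CPM in S phase tip cells (log2 0.63, SE 0.0985). Against mitotic tip cells the log2 fold changes of these genes were 0.44 for Kdm5b and 0.57 for Pdcd4, and both comparisons use the same slow-cycling sums.

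Sprr1a (0.87), Kcnk2 (0.83), the extracellular protein Hmcn1 (0.72), Mxd4 (0.69), the exchange factor Arhgef28 (0.67), Emp1 (0.63), Cldn10 (0.61), Anxa1 (0.50) and H19 (0.31) also rose against S phase tip cells. Foxp2 (-0.76, SE 0.103) and Dlk1 (-0.76, SE 0.109) fell, as did the nucleolar genes Ncl (-0.24) and Nolc1 (-0.50) of the MYC and ribosome list, of which 2 of 21 passed, and the inhibitor gene Cdkn2c (-1.55). Etv5 (-0.31, SE 0.0802, edgeR adjusted p = 0.105), Id2 (-0.19, SE 0.0687), Sftpc (-0.43, SE 0.148) and Igf2 (0.34, SE 0.0926) did not pass. Of 19 distal tip genes tested Foxp2 alone passed, with a list median of -0.10.

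None of the 26 named genes that passed against S phase tip cells passed without replicate 2 of the Epcam+ Icam+ sort, where 1 gene in all was called, and 3 passed without replicate 1, where 34 genes were called. All 26 passed without the Epcam+ library, where 801 genes rose and 1291 fell. With the cycle percentiles taken over all gated cells, 5 genes were called in place of 183.

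**Figure D3:**
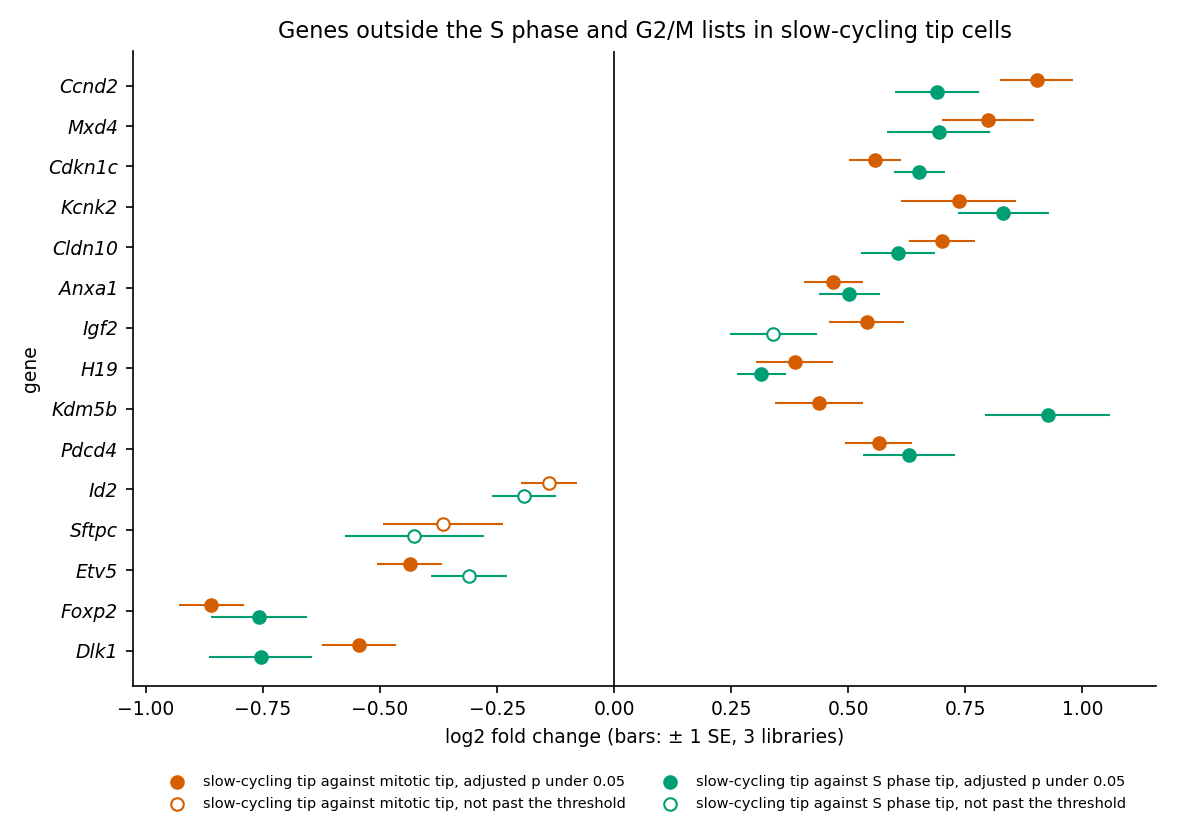
Log2 fold changes (points) with 1 SE (bars) of 15 genes in slow-cycling tip cells over mitotic tip cells (orange) and over S phase tip cells (green), from edgeR fits on 3 libraries, with filled points past an adjusted p of 0.05. Ccnd2, Mxd4 and Cdkn1c lie right of 0 and Foxp2 and Dlk1 left of 0 in both comparisons, and both comparisons share the slow-cycling sums.

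The third comparison sets the members against airway cells held under the same cycle limits, and asks what sets tip apart from airway outside active division. Sox9 and Sox2 chose the classes and stood at 87.2, 98.6 and 82.9 CPM (Sox9) in the members and 148, 139 and 176 CPM (Sox2) in the airway cells. In the edgeR quasi-likelihood fit, 822 of 10927 genes rose (7.52%) and 655 fell (5.99%) in slow-cycling tip cells, 13.5% together. This comparison uses the same slow-cycling sums as the first 2. The airway cells were of similar depth in the Epcam+ Icam+ libraries (18081 and 17372 UMIs) and shallower in the Epcam+ library (17446).

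Of 19 distal tip genes tested, 10 rose and 2 fell, with a median of 0.35 against 0.02 over all genes tested. Sftpc had 3444, 3821 and 2485 CPM in slow-cycling tip cells and 218, 82.3 and 547 CPM in slow-cycling airway cells (log2 3.79, SE 0.384, edgeR adjusted p = 1.89e-05). Etv5 had 63.2, 70.3 and 166 CPM in the members and 5.58, 12.5 and 44.5 CPM in airway cells (log2 2.36, SE 0.189, edgeR adjusted p = 2.77e-06). Both sets of values stood apart without overlap. Id2 did not separate the classes, with 164, 161 and 548 CPM in slow-cycling tip cells and 178, 201 and 388 CPM in slow-cycling airway cells (log2 0.15, SE 0.134, edgeR adjusted p = 0.539), and its difference was positive in 1 of 3 libraries. Without the Epcam+ library it was -0.16.

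Other tip genes rose with Etv5: Foxp2 (1.28, SE 0.10004), the zinc finger factor Gata6 (1.24), the chromatin protein Hmga2 (1.09) and Mycn (1.13). Foxa1 (-0.83, SE 0.130) and Cdh1, E-cadherin (-0.35, SE 0.0977), fell, and Nkx2-1 differed by 0.35 (SE 0.0890, edgeR adjusted p = 0.0183). Of the signalling lists, 3 of 10 FGF genes rose and none fell, namely the receptors Fgfr2 (0.47) and Fgfr4 (1.41) and the feedback phosphatase Dusp6 (0.69). Of 11 Wnt genes 4 rose, the ligand Wnt7b (1.02) and the target genes Sp5 (2.12), Tcf7 (1.64) and Nkd1 (1.39), and 2 fell. The BMP ligand gene Bmp4 had 21.2, 23.5 and 70.8 CPM in the members and 10.4, 10.2 and 6.30 CPM in airway cells (log2 2.36, SE 0.357, edgeR adjusted p = 0.000559). Notch1 (1.12), Shh (0.49) and its receptor Ptch1 (0.46) also rose. Wnt7b, Tcf7 and Nkd1 did not pass without the Epcam+ library.

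The genes with the largest rises beside Sftpc and Etv5 were Ankrd1, a target of Yap (2.86), the protease gene Cym (2.79), Fam89a (2.78), the matrix genes Matn4 (2.66) and Col18a1 (2.56), Dlk1 (2.57), the carbonic anhydrase Car2 (2.46) and Lgi3 (2.42). Of 18 basement membrane and adhesion genes 9 rose and 3 fell, and the laminin chains Lama3 (2.09) and Lamc1 (1.09) and the claudin Cldn18 (1.01) were among those that rose. Lama3 had 26.2, 28.8 and 17.9 CPM in the members and 4.78, 8.62 and 4.62 CPM in airway cells. Clu (2.13) and Mest, an imprinted gene (2.51), rose as well.

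The genes with the largest falls were the secretory gene Scgb3a2, with 45.0, 10.1 and 36.2 CPM in slow-cycling tip cells and 1754, 1737 and 582 CPM in slow-cycling airway cells (log2 -5.16, SE 0.384, edgeR adjusted p = 1.63e-06), the club cell reductase Cbr2 (-4.65), the homeobox factor Meis2 (-3.57), Krt17 (-3.40), haptoglobin (Hp, -3.27), Mycl (-3.24), N-cadherin (Cdh2, -2.99), the retinal dehydrogenase Aldh1a1 (-2.87), Krtap17-1 (-2.84) and Cited1 (-2.53). In the members 1 cell gave 71% (Hp) and 76% (Krt17) of the UMIs of these genes in replicate 1 of the Epcam+ Icam+ sort. Without cells that carry RNA of another type the differences were -4.35 (Hp) and -3.16 (Krt17). That filter took cells rich in Scgb3a2 out of the members but not out of the airway cells, so it is no even check of airway genes. Of 7 airway markers tested 6 fell and none rose.

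G1 regulators were lower in slow-cycling tip cells than in slow-cycling airway cells in 7 of 21 genes and higher in 1. Cdkn1c had 1604, 1704 and 636 CPM in the members and 3923, 3712 and 2459 CPM in airway cells (log2 -1.37, SE 0.102, edgeR adjusted p = 1.63e-06). Ccnd2 had 427, 345 and 309 CPM in the members and 832, 814 and 1229 CPM in airway cells (log2 -1.32, SE 0.132), and Rb1, the retinoblastoma protein gene, differed by -1.05 (SE 0.232). Anxa1 (-1.37), S100a6 (-2.36), Igf2 (-0.71) and H19 (-0.74) fell too. The levels of Cdkn1c, Ccnd2, Anxa1, Igf2 and H19 in the members thus lay between those of mitotic tip cells and of slow-cycling airway cells of the same library in each of the 3 libraries. The same order, reversed, held for Foxp2, Dlk1 and Etv5. All these genes had been called in opposite directions against mitotic tip cells and against airway cells, with the same slow-cycling sums. The order thus follows largely from their choice, and the share of all genes that show it was not counted. Sftpc did not show it in the Epcam+ library, where its level in the members was above that in mitotic tip cells. Even under common limits, 20 of 30 G2/M genes (median 0.69) and 11 of 22 S phase genes (median 0.54) were higher in the members, with a mitotic share of 156, 208 and 432 CPM in the members and 98.3, 103 and 255 in airway cells. Whether this residual cycling has a part in the other differences was not tested. Without replicate 1 of the Epcam+ Icam+ sort 666 genes were called in place of 1477.

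**Figure D4:**
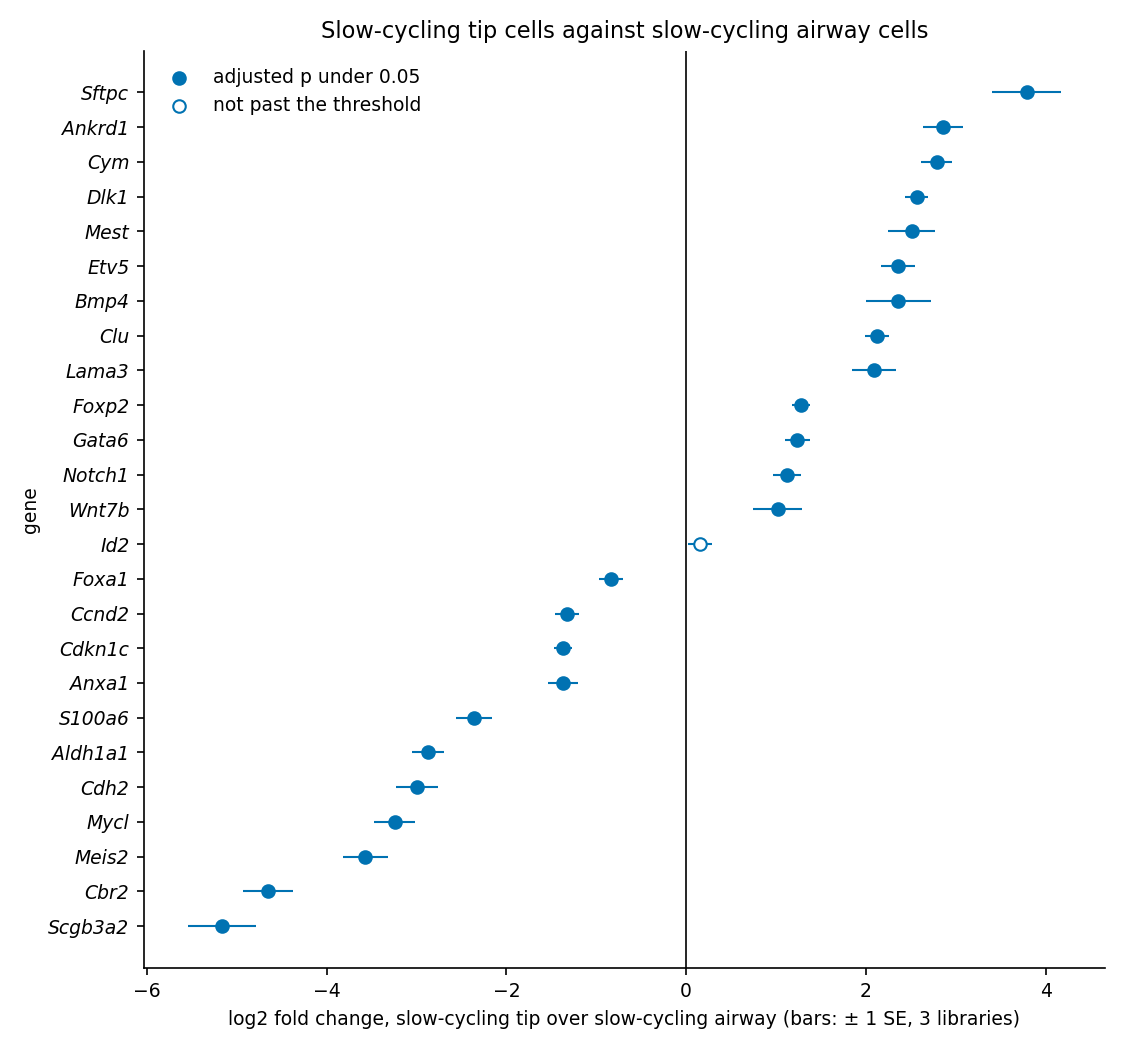
Log2 fold changes (points) with 1 SE (bars) of 25 genes in slow-cycling tip cells over slow-cycling airway cells, from the edgeR fit on 3 libraries, with filled points past an adjusted p of 0.05. Sftpc (3.79), Dlk1 and Etv5 lie on the tip side, Scgb3a2 (-5.16) and Cbr2 on the airway side, and Id2 close to 0.

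The labels themselves compare the sorts, and among the members 3471 of 11295 genes rose (30.7%) and 3502 fell (31%) in Epcam+ Icam+ cells against Epcam+ cells (61.7% together, edgeR quasi-likelihood test, n = 2 and 1 libraries). With most genes called, a call alone says little about a member, and the 1 residual degree of freedom comes from the spread between the Epcam+ Icam+ libraries alone. The fit took a spread pooled over genes in place of each gene's own, so the SE of a gene here does not measure its own spread. Software, gene table and barcode set cannot be told apart from the sort. In the members, fewer cells of a kind and less RNA per cell cannot be told apart in these sums.

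Distal tip genes moved both ways between the sorts, with 7 of 19 tested higher and 9 lower in Epcam+ Icam+ members (median -0.14). Etv5 had 63.2 and 70.3 CPM in Epcam+ Icam+ members and 166 CPM in Epcam+ members (log2 -1.42, SE 0.117). Id2 had 164 and 161 CPM in Epcam+ Icam+ members and 548 CPM in Epcam+ members (log2 -1.86, SE 0.0836). Dlk1 (-2.67, SE 0.0868), Bmp4 (-1.77), Wnt7b (-2.46), Mycn (-1.26) and Etv4 (-3.02) fell with them, Etv4 at 1.499 and 1.26 CPM against 10.5 CPM. Sftpc had 3444 and 3821 CPM in Epcam+ Icam+ members and 2485 CPM in Epcam+ members (log2 0.44, SE 0.0546), and Foxp2 rose by 0.46. Nkx2-1 did not pass, at 191 and 197 CPM in Epcam+ Icam+ members and 198 CPM in Epcam+ members (log2 -0.14, SE 0.0966, edgeR adjusted p = 0.217). The factors Foxp1 (0.78) and Sox11 (0.36) rose, and Gata6 (0.10, SE 0.133) did not pass.

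Most tested genes of ribosome production and glycolysis were lower after the Icam1 sort. All 22 S phase genes fell as well (median -1.56, against 0.02 over all genes tested), among them Dut at 199 and 200 CPM in Epcam+ Icam+ members and 392 CPM in Epcam+ members (log2 -1.08), Tyms (-1.44) and Rrm2, at 16.99 and 18.96 CPM against 118 CPM (-2.82). The S phase limit that chose the members was 385 and 320 CPM after the Epcam+ Icam+ sort and 638 after the Epcam+ sort, so the rule itself admitted more S phase RNA in the Epcam+ library, and nothing is read from this list or the G2/M list. Of 30 G2/M genes 21 fell and 5 rose, with a median of -0.47, and Mki67 was among those that rose (0.83, SE 0.132), at 89.9 and 122 CPM in Epcam+ Icam+ members and 55.2 CPM in Epcam+ members. Of 21 MYC and ribosome genes 18 fell and 1 rose (median -0.93), with Ncl at -0.62 and Nop56 at -1.51. Of 13 glycolysis and hypoxia genes 10 fell and 1 rose (median -1.06), with Gapdh at 1617 and 1642 CPM in Epcam+ Icam+ members and 3283 CPM in Epcam+ members, and Pkm at -1.75. Of 11 BMP and Id genes 9 fell and 2 rose, with Id3 at -0.99 and Id1 at -0.42.

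Most tested genes of alveolar type 1 and type 2 cells outside the rule, and of a keratin-high epithelial state, were higher after the Icam1 sort. Of 13 type 1 genes outside the rule 10 rose and 1 fell (median 2.08), with Cldn18 at 855 and 835 CPM in Epcam+ Icam+ members and 233 CPM in Epcam+ members (log2 1.75), S100a6 at 2.14 and Emp2 at 2.82, whereas Igfbp2 fell by 1.06. Cells above the library's own percentile for 4 type 1 genes had been dropped, at limits of 778 and 740 CPM after the Epcam+ Icam+ sort and 201 after the Epcam+ sort. The part of this gap in limits was not tested. Of 8 type 2 genes outside the rule, a list that holds Sftpc, 6 rose and none fell (median 0.83). Lyz2 (2.94) counts among those that rose, but it was higher in 1 of the 2 Epcam+ Icam+ libraries alone, where 1 cell gave most of its UMIs. The limits for the 3 type 2 genes of the rule ran the other way, at 77.2 and 92.6 CPM after the Epcam+ Icam+ sort and 324 after the Epcam+ sort. Of 19 keratin-high genes 15 rose and 2 fell (median 1.12), with Krt18 at 1301 and 1182 CPM in Epcam+ Icam+ members and 733 CPM in Epcam+ members (log2 0.65), Krt8 at 0.42 and Anxa1 at 2.05. E-cadherin, Cdh1, rose by 1.71.

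Cell cycle inhibitor genes moved both ways, with Cdkn1c, Cdkn1b, Cdkn1a (0.68) and Cdkn2b (1.38) higher and Cdkn2d lower (-0.69) in Epcam+ Icam+ members, and Cdkn2c (-0.80, SE 0.543) not past the test. Cdkn1c had 1604 and 1704 CPM in Epcam+ Icam+ members and 636 CPM in Epcam+ members (log2 1.27, SE 0.0653), and Cdkn1b 66.96 and 65.5 CPM against 11.8 CPM (log2 2.38, SE 0.171). Of 21 G1 regulators 10 rose and 3 fell, and Ccnd2 rose by 0.21 (SE 0.0826, edgeR adjusted p = 0.0173), a call that was lost with DESeq2 and without cells that carry RNA of another type. Igf2 stood at 344 and 291 CPM in Epcam+ Icam+ members and 11.53 CPM in Epcam+ members (log2 4.67), but it overlaps a gene that only 1 of the gene tables lists, so this difference cannot be told apart from the table. H19 rose by 0.60. Of 10 FGF genes 6 rose and 1 fell, with the feedback inhibitor Spry2 at 63.7 and 55.4 CPM in Epcam+ Icam+ members and 24.2 CPM in Epcam+ members (log2 1.19) and Fgfr2 at 0.45. Of the Wnt genes, Wnt11 (2.52) and the receptor gene Fzd5 (2.05) rose, and 3 of 12 rose and 4 fell in all.

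**Figure D5:**
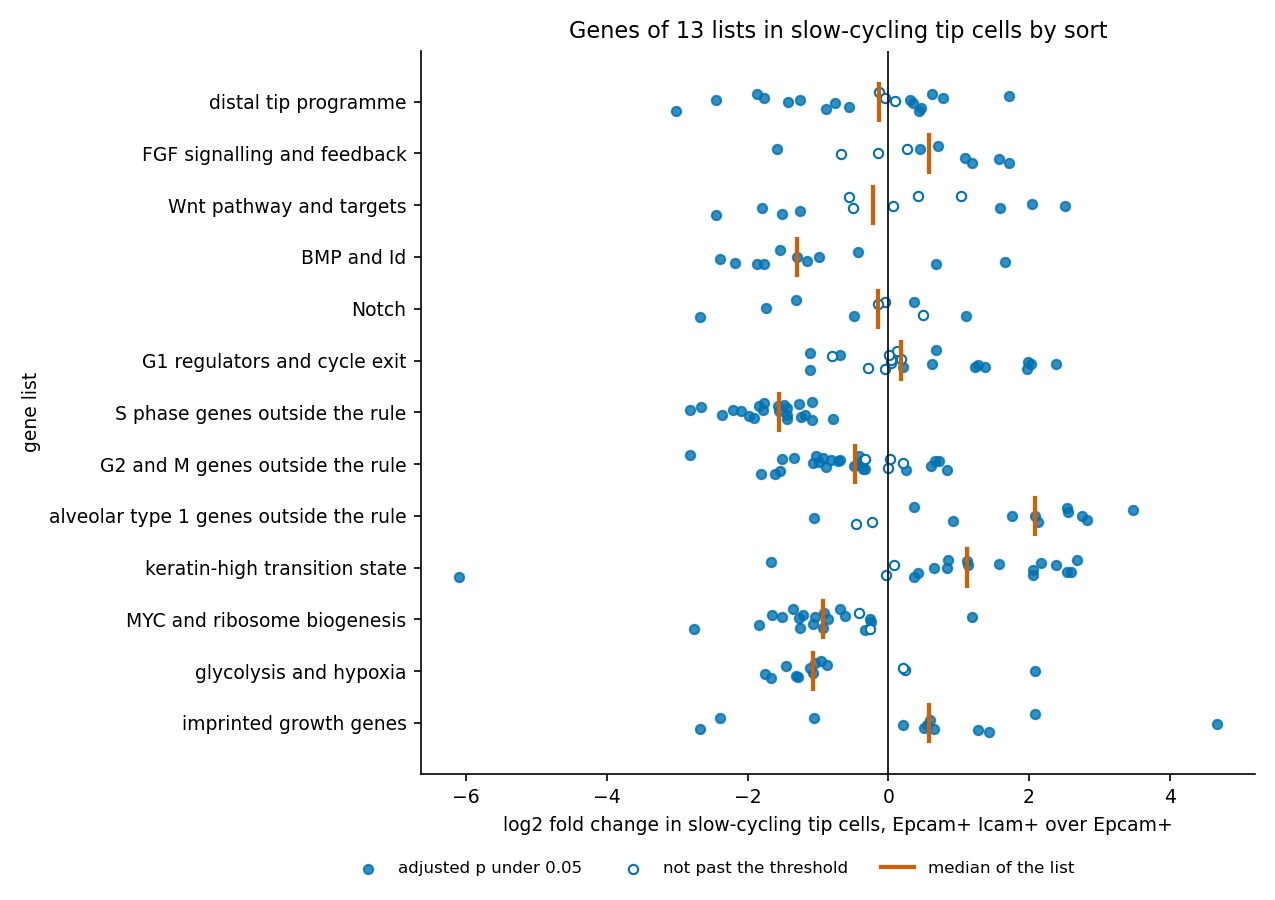
Log2 fold changes of the genes of 13 lists (points) in slow-cycling tip cells, Epcam+ Icam+ over Epcam+, with filled points past an adjusted p of 0.05 in the edgeR fit (2 libraries against 1) and an orange bar at the list's median; points are spread up and down within a list for legibility. The S phase list lies wholly left of 0 (median -1.56), and the alveolar type 1 list mostly right of it (median 2.08). The rule cut on both programmes at limits that differed between the libraries, and the part of these limits was not tested.

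The difference between sorts was also compared between slow-cycling and mitotic tip cells, a test in which effects of software and gene table cancel where they act alike on both classes. In the edgeR interaction test 68 of 11487 genes were higher (0.592%) and 325 lower (2.83%), 3.42% together. The lower ones included 24 of 30 G2/M genes (median -0.83) and 17 of 22 S phase genes (median -0.82), the programmes on which the rule cut, with limits that were higher in the Epcam+ library. Etv5 (0.01, SE 0.137) and Id2 (-0.09, SE 0.108) did not pass. Sftpc did, with an interaction of -0.80 (SE 0.0754). It was lower in slow-cycling than in mitotic tip cells by a log2 of -0.71 and -0.61 in the Epcam+ Icam+ libraries. In the Epcam+ library it was higher by 0.15. The fit took a spread pooled over genes in place of each gene's own, so this SE does not measure the spread of Sftpc itself between libraries. The Epcam+ side of this test is 1 library, so its p-value holds no spread on that side, and with DESeq2 25 genes were called in place of 393, although Sftpc kept its call (-0.79).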

How the data were processed

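The deposited UMI counts by barcode of 2 Epcam+ Icam+ libraries and 1 Epcam+ library of E14.5 lung cells were used. The authors' tool, per the submitters' processing notes, was Cell Ranger 2.1.1 against mm10, whereas the file headers name versions 5.0.1 (Epcam+ Icam+) and 3.0.2 (Epcam+). Genes were joined by Ensembl ID (30406 shared), and the CPM of a single gene in a class are computed over these. The shares and limits of the rule, the summed cell type lists and Sftpc per cell use all UMIs of the library's own gene table. Members, comparison classes and gene lists were chosen with earlier results of these data known. Named genes were Sox9, Etv5 and Id2, members of 27 lists (as examples those with the highest mean CPM among genes past the threshold), and 10 genes each way with the largest change, whose mean reached 20 CPM and whose sign was shared by all libraries, without S phase, G2/M, histone, mitochondrial, ribosomal protein and globin genes and gene models (5 in each direction for the interaction). Kdm5b and Pdcd4 against mitotic tip cells, and some list members in the sort comparison, were picked after their values were seen.

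Counts were summed per library and class and compared in R 4.3.3 with edgeR 4.0.16 (quasi-likelihood F test, TMM, filterByExpr, Benjamini-Hochberg over all genes, threshold 0.05). The library was the block within libraries, since both classes of a pair come from the same library, which left 2 residual degrees of freedom, and 1 for the sort and the interaction. In the sort and interaction fits the prior degrees of freedom were infinite, so a spread pooled over genes replaced each gene's own. SE is the log2 fold change over the square root of F. The biological coefficient of variation was 8.70%, 11.1%, 10.2%, 8.70% and 4.15% in the 5 fits, in the order of the report. On simulated counts with known changes, 95% to 100% of genes changed by a log2 of 1 were recovered, with 3 to 14 false calls per comparison. These shares describe the simulated counts alone. The share of true changes recovered in the real libraries was not tested. Alternatives were RLE scaling, no filter, DESeq2 1.42.0, thinning to 5000 UMIs, Sox9 at 2 UMIs, C1q at 1 UMI, other percentiles, no deepest 5% of cells, no block, a joint fit and each library left out. Some genes that the rule names are not reported here. Doublets were not called, and free RNA was not removed. Leaving out cells with at least 10 UMIs of another cell type was added after seeing the data.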

Additional observations from a re-analysis of the deposited data

Results flagged for a closer look

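The named genes in this section differed between the sorts in how slow-cycling and mitotic tip cells compare, by the edgeR interaction test (Epcam+ Icam+ minus Epcam+, log2, n = 2 and 1 libraries). Over all genes tested, 3.42% passed, as given in the report. Ifitm1, Lyz2, Srgn, Lgals3, Rab26os, Iqgap3, Spc25, Gas2l3 and Cavin1 were named for a large interaction past this same test. Their passing is fixed by that choice, so nothing is read from the number of named genes that passed. Sftpc had an interaction of -0.80, with its values by library in the report. 8 genes known from mitosis or microtubules differed, all with a deeper fall in the members of the Epcam+ Icam+ libraries: Iqgap3 (-1.65), Spc25 (-1.48), Gas2l3 (-1.45), Kpna2 (-1.26), Prc1 (-1.24), Kif22 (-1.16), Tubb4b (-1.07) and Tuba1c (-0.59). The mitotic limit was 642 and 729 CPM after the Epcam+ Icam+ sort and 950 after the Epcam+ sort, and its part in these differences was not tested. Rab26os (0.99) rose more in the members of the Epcam+ Icam+ libraries, with log2 fold changes of 1.73 and 1.56 against 0.66 in the Epcam+ library. Cavin1 (-1.45) differed between slow-cycling and mitotic tip cells by -0.081 and 0.33 after the Epcam+ Icam+ sort and 1.57 after the Epcam+ sort, where it had 86 UMIs in slow-cycling and 18 in mitotic tip cells.

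Ifitm1 (8.61), Lyz2 (5.27), Srgn (3.36) and Lgals3 (1.18) differed by the same test. 1 cell gave 68% of the Ifitm1 UMIs, 99% of the Lyz2 UMIs and 58% of the Srgn UMIs of the members of replicate 1 of the Epcam+ Icam+ sort. For Lgals3, 1 cell gave 45.4% of the UMIs in slow-cycling and 47.2% in mitotic tip cells of the Epcam+ library. Without cells that carry RNA of another type Ifitm1 was at -0.25, Lyz2 and Lgals3 did not pass, and Srgn was too low to be tested. Of the other genes named from the interaction test, not all kept their call in that fit.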

How the results depend on the processing

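The counts of genes past the threshold moved by more than 1.5 times under several settings. Against mitotic tip cells, 394 genes became 228 with DESeq2 and 1029 with no filter on low counts, and leaving out a library gave 23 to 1588. Against S phase tip cells, 183 became 476 in a joint fit of all classes, 322 without the deepest 5% of cells, 932 with no filter, 5 with cycle percentiles over all gated cells and 287 with at least 2 Sox9 UMIs, and leaving out a library gave 1 to 2092. Against airway cells, 1477 became 741 with DESeq2 and 497 with thinned cells, and leaving out a library gave 666 to 1488. Between sorts, 6973 became 3259 with DESeq2 and 3913 with thinned cells. The interaction count of 393 became 25 with DESeq2, 606 with cycle percentiles over all gated cells, 142 with at least 2 Sox9 UMIs and 53 with thinned cells. The cause was not tested. With no replicate block the edgeR fits called 0 genes against mitotic tip cells, 0 against S phase tip cells and 7 against airway cells, with 291, 268 and 639 genes at an unadjusted p under 0.05; library differences then enter the spread, and DESeq2 with the block called 228, 204 and 741. No paired analysis was possible because the labels give the single Epcam+ library no replicate number in the comparison of sorts, and leaving out a library there left no residual degree of freedom, so no count is given. Signs turned for Cdkn1a against mitotic tip cells (0.092 without cells with RNA of another type, 0.053 with percentiles over all gated cells, 0.35 with at least 2 Sox9 UMIs, and -0.34 to 0.11 with a library left out), for Id2 against airway cells (-0.16 without the Epcam+ library, up to 0.34 without Epcam+ Icam+ replicate 2), and in the interaction for Etv5 (-0.050 with C1q at most 1 UMI, -0.0067 without cells with RNA of another type, -0.044 with percentiles over all gated cells, -0.25 thinned), Id2 (0.10) and Lgals3 (-0.63) with at least 2 Sox9 UMIs, Ifitm1 (-0.25 without cells with RNA of another type) and Srgn (-2.69 without Epcam+ Icam+ replicate 1, 3.41 without replicate 2). RLE scaling changed none of these counts by more than 1.5 times. Depth limits Sox9, which many members held as 1 UMI, and Etv4, which most lacked.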
